A study of Homo sapiens with 65 samples.

Results

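The genes described here build, modify or bind sulfated glycosaminoglycans, or are relatives of genes that do. Such glycosaminoglycans are chains of repeating sugars attached to proteoglycan proteins at the cell surface and in the matrix. They are 10 of the 58735 genes counted in the series: XYLT1 and B3GAT2, CSGALNACT1, CHSY1 and CHPF, EXT1, EXT2, NDST1 and HS6ST2, and HPSE2. B3GAT2 and HPSE2 were chosen by their values, for a rise under early hyaluronidase at day 7.5, so their levels there are a description with no test. For the other 8 genes no value rule is given, but they were listed with earlier results of these data known.

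A chain starts when xylose is added to a serine of the core protein and is extended to a short linker that ends in glucuronic acid. From that linker either chondroitin sulfate, with N-acetylgalactosamine, or heparan sulfate, with N-acetylglucosamine, is polymerised. Heparan sulfate is then sulfated at chosen positions, which sets its binding of growth factors such as FGFs, and both kinds of chain belong to the matrix of the developing heart. Hyaluronan, which hyaluronidase digests, is made of similar sugars but carries no core protein and no sulfate.

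Expression was measured by 3′ mRNA sequencing in 65 libraries of left-ventricular cardioids, heart-like aggregates grown from WTC-11, a human induced pluripotent stem cell line, with 8 cardioids pooled for each library. The 41 libraries of the genotype arm compared lines labelled WT with clones labelled HAS2-KO (KO), a knockout of a hyaluronan synthase, at day 1.5 (5 WT and 6 KO libraries), day 2.5 (6 and 6), day 4.5 (6 and 6) and day 7.5 (3 and 3). The 24 libraries of the enzyme arm were all of genotype WT: untreated cardioids, cardioids given hyaluronidase from day 1.5 until collection (HAse1.5) and cardioids given it from day 2.5 until collection (HAse2.5). Untreated and HAse1.5 cardioids were collected at days 2.5, 4.5 and 7.5 and HAse2.5 cardioids at days 4.5 and 7.5, with 3 libraries in each group. All groups went through the same left-ventricular differentiation. In the enzyme arm replicates 1, 2 and 3 are the lines labelled TNNI1, WT and TNNT2. The KO clones are cl4, cl14, cl46 and cl51, and the lines behind the WT libraries of the genotype arm are WT, WT_TU, TNT2 and cl43_WT_UT. Clone cl4 gave 3 of the 6 KO libraries at days 1.5, 2.5 and 4.5, and 2 of the 3 at day 7.5. Libraries of 1 clone share that clone and are not independent edits. The libraries of this arm also fall into 3 sets by library number. At day 7.5 only 1 set held both genotypes, with 1 KO and 2 WT libraries, so genotype and set are largely confounded there.

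Libraries held 831062 to 3574843 counts (median 1570954), so 3 counts corresponded to 3.61 CPM (counts scaled to the library total) in the smallest library and 0.839 CPM in the largest. Where no library of a group held more than 3 counts of a gene, the gene is called at the floor there, and the fold of another group over it is a lower bound, taken against 3 counts per library. HAS2 itself did not pass the threshold between KO and WT at any day (log2 fold changes −0.26, −0.23, −0.01 and 0.18, edgeR quasi-likelihood test, Benjamini-Hochberg adjusted p 0.937, 0.77, 0.992 and 1). A 3′ tag can lie outside an edit, so its level does not check the knockout. The 7 cardiomyocyte markers were all detected in every group of days 4.5 and 7.5, and their summed level was 51974 to 68041 CPM in the WT, KO and untreated libraries of day 7.5. Libraries pool many cells, so a lower value can mean fewer expressing cells or less RNA per cell, and the measurements cannot be told apart in this respect.

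The promoters of B3GAT2, HPSE2, XYLT1 and HS6ST2 are shown because the largest differences under hyaluronidase fell on these 4 genes. Of the 10 genes 8 had an entry, all but CSGALNACT1 and EXT1. Each is taken from RefSeq on GRCh38.p14 and runs 5′ to 3′ on the gene's own strand, the minus strand for all 4 genes, from 250 bases before the start of transcription to 50 bases after it. The regions are chr6:70957011-70957310 for B3GAT2, chr10:99235826-99236125 for HPSE2 (the first of 2 listed starts), chr16:17470911-17471210 for XYLT1 and chrX:132961321-132961620 for HS6ST2. Capitals mark the letters AGATAA or their reverse complement TTATCT, the core to which GATA factors of heart development bind.
B3GAT2: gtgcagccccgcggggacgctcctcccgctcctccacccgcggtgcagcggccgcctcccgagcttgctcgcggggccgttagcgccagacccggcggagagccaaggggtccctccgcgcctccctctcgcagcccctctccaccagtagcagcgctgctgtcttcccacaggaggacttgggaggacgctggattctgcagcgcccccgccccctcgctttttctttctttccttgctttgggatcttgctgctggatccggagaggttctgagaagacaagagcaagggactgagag
HPSE2: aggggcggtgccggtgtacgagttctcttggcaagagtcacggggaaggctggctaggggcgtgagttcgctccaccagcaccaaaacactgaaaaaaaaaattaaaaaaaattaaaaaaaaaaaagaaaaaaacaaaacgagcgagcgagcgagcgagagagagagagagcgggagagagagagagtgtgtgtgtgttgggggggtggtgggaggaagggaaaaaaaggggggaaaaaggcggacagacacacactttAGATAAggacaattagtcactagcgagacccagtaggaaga
XYLT1: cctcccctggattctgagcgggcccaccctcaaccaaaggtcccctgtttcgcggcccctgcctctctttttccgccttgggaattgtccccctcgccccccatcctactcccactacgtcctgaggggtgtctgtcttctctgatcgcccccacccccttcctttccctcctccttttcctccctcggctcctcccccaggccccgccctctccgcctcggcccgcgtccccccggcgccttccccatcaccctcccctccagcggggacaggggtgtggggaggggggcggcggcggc
HS6ST2: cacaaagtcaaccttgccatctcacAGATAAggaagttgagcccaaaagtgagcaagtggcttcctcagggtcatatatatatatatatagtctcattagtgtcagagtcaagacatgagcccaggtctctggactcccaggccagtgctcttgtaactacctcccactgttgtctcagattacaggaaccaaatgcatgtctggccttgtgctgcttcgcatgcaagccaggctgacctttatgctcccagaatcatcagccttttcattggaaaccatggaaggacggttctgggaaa
The GATA letters occurred on either strand in 10.3% of 35116 RefSeq promoters of 300 bases, and 1 match was found in HPSE2 and 1 in HS6ST2. The letters GGAATG or CATTCC, the core of the TEAD site, occurred in 14% of all promoters and in none of these 4 windows. The 2 motifs do not overlap each other, their letters were chosen after the sequences were seen, and a match is a description of the sequence, not a site. G and C made up 67% of the bases in B3GAT2 and 70% in XYLT1, against 49% in HPSE2 and 47.3% in HS6ST2 and a median of 58.7% over all promoters.

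XYLT1 is among the enzymes that add the xylose that starts such a chain, and it was higher in HAse1.5 than in untreated cardioids at days 4.5 and 7.5. The gene lies on chromosome 16 (17101769 to 17470881, minus strand, GRCh38). At day 4.5 untreated replicates 1, 2 and 3 had 5.46, 11.5 and 5.56 CPM, HAse1.5 replicates 24.8, 24.2 and 56.5 CPM, and HAse2.5 replicates 16.5, 14.1 and 18.6 CPM. All HAse1.5 libraries thus lay above all HAse2.5 libraries, and these above all untreated ones. Within lines the HAse1.5 value was 4.55, 2.10 and 10.1 times the untreated value. The fitted log2 fold change of HAse1.5 was 2.17 ± 0.45 (SE, edgeR quasi-likelihood test, adjusted p = 0.00601). It was no longer past the threshold without HAse1.5 replicate 3 (1.65, adjusted p 0.0925 in edgeR) or without untreated replicate 1 (2.00, adjusted p 0.0512).

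At day 7.5 untreated replicates of XYLT1 had 1.78, 5.74 and 0.742 CPM, HAse1.5 replicates 17.1, 17.3 and 11.2 CPM, and HAse2.5 replicates 7.61, 6.71 and 5.89 CPM. The order of the groups was that of day 4.5, again with no overlap between them. The fitted difference of HAse1.5 was 2.24 ± 0.53 on the log2 scale (SE), past the threshold with an edgeR adjusted p of 0.016. It ranged from 1.82 without untreated replicate 3 to 3.42 without untreated replicate 2. The untreated libraries held only 2, 9 and 1 reads of the gene. The call was lost without either of HAse1.5 replicates 1 and 2 (edgeR adjusted p 0.0681 and 0.0537), without untreated replicate 1 or 3 (0.0817 and 0.0958), and in a fit of only the 6 libraries compared (0.155). HAse2.5 against untreated did not pass the threshold at day 4.5 (log2 fold change 1.12, 95% interval 0.16 to 2.07, edgeR adjusted p 0.556) or at day 7.5 (1.14, −0.01 to 2.30, adjusted p 0.374). Nor did HAse1.5 against HAse2.5 (1.05, 0.20 to 1.91, adjusted p 0.341 at day 4.5, and 1.10, 0.14 to 2.06, adjusted p 0.781 at day 7.5, edgeR). The comparisons of both enzyme groups share the untreated libraries. At day 2.5, the first day collected after the enzyme was given, untreated XYLT1 levels of 6.13, 8.94 and 4.49 CPM stood beside HAse1.5 levels of 8.24, 5.59 and 5.00 CPM, which overlapped. Whether the HAse1.5 effect on XYLT1 changed over the days was tested, and it did not pass (edgeR F-test, adjusted p 0.149). In the genotype arm XYLT1 did not pass at any day. At day 4.5 its WT levels were 3.75 to 13.2 CPM (median 9.03) and its KO levels 4.27 to 20.8 CPM (median 13.5).

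**Figure D1:**
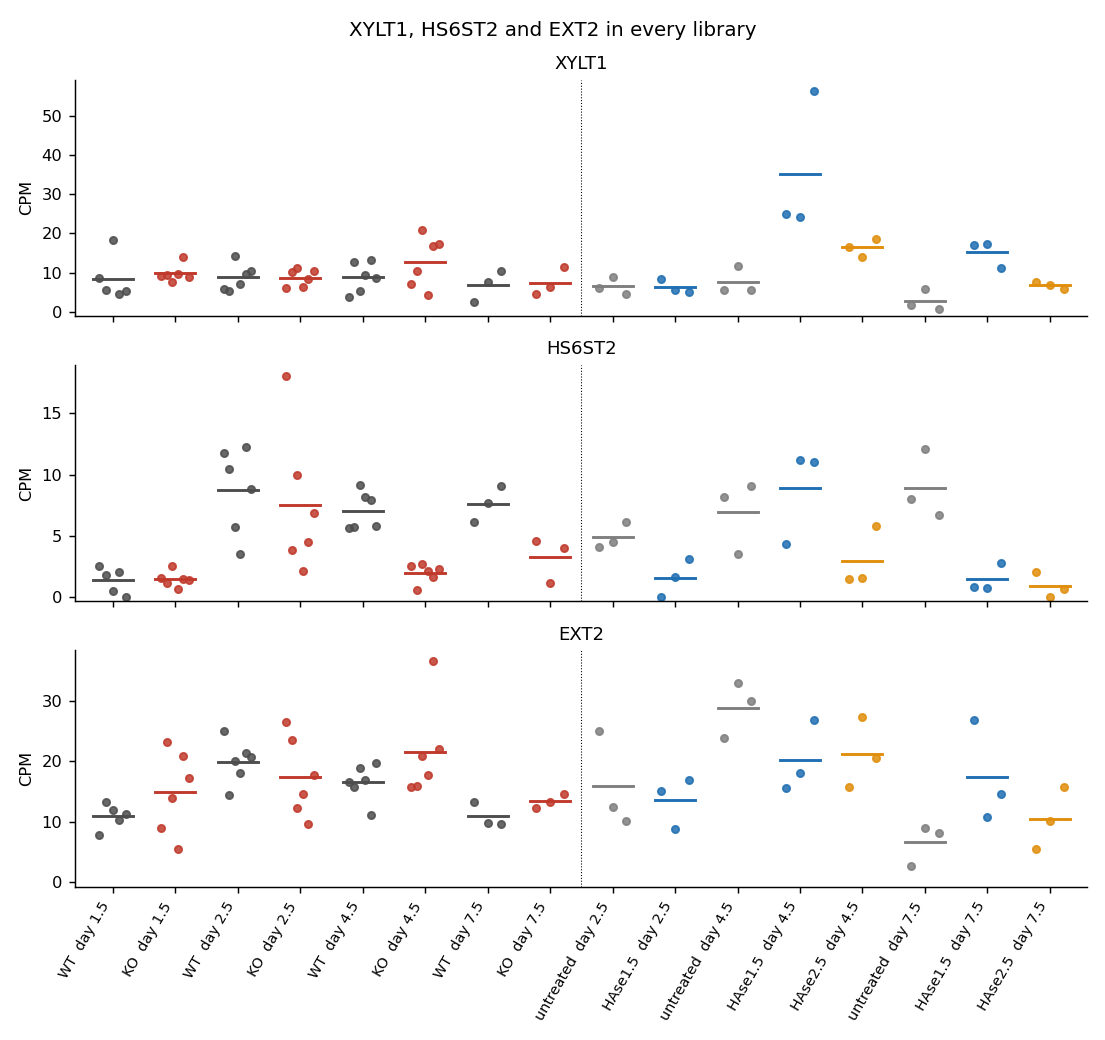
CPM of XYLT1, HS6ST2 and EXT2 in each of 65 libraries (points) with the group mean (horizontal lines), by group and day, on linear axes; the dotted line separates the genotype arm from the enzyme arm. XYLT1 is highest in HAse1.5 at day 4.5 (24.2 to 56.5 CPM), and HS6ST2 lies between 0 and 2.79 CPM in both enzyme groups at day 7.5, below all untreated libraries.

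B3GAT2 belongs to the family of glucuronic acid transferases whose other members are B3GAT3, which completes the linker, and B3GAT1, which makes the HNK-1 epitope of neural glycoproteins. Which of these products B3GAT2 makes here was not measured, so its level is not read as a change in chain synthesis. B3GAT2 was near the detection limit in most groups and was abundant in HAse1.5 cardioids at day 7.5, the values on which it was selected. Untreated replicates 1, 2 and 3 had 1.78, 0.638 and 0 CPM there, HAse1.5 replicates 70.9, 10.1 and 46.7 CPM, and HAse2.5 replicates 13.1, 4.03 and 11.1 CPM. All libraries of each enzyme group lay above all untreated ones, and replicate 2 (the line labelled WT) was the lowest in both enzyme groups. The untreated libraries are at the floor, which makes the HAse1.5 mean at least 18.7-fold higher and the HAse2.5 mean at least 4.15-fold higher. The HAse1.5 mean of 42.6 ± 30.6 CPM (SD, n = 3) carries a wide spread. It was the highest of the 16 group means, and the HAse2.5 mean at the same day was the second, at 9.44 CPM.

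At earlier days B3GAT2 was lower in every library of the enzyme arm than in any HAse1.5 library of day 7.5. At day 2.5 untreated levels were 2.04, 6.26 and 1.12 CPM and HAse1.5 levels 4.12, 3.20 and 4.37 CPM, which overlap. At day 4.5 untreated levels were 0, 0 and 1.39 CPM and HAse1.5 levels 3.10, 2.59 and 4.66 CPM, with no overlap, at 3 to 8 reads a library. Against the floor the HAse1.5 mean is at least 1.52-fold higher. B3GAT2 reached the filter level of the enzyme arm (6.94 CPM) only in 5 enzyme libraries of day 7.5, 3 of them those it was selected on, so no test of it is given here. HAse2.5 levels at day 4.5 were 0.719, 2.34 and 0.641 CPM. B3GAT2 lies on chromosome 6 (70856679 to 70957038, minus strand), and its 3′ end overlaps SMAP1 on the opposite strand, and the strand setting of the counting is not given in the sources used here. SMAP1 had 50.5 to 67.0 CPM in untreated and 51.6 to 84.9 CPM in HAse1.5 libraries of day 7.5 (log2 fold change 0.17, edgeR adjusted p 0.774).

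In the genotype arm B3GAT2 was at low levels in both genotypes at day 4.5. WT levels were 0 to 0.626 CPM (median 0), with 0 or 1 read a library, and KO levels 0 to 4.06 CPM (median 1.61). B3GAT2 reached the level of the filter on low counts (5.74 CPM) in 3 libraries of this arm, all of KO at day 2.5, so it was tested here only through a KO group in which it is high. For that reason the call at an edgeR adjusted p of 0.0486 (log2 fold change 2.94) is no evidence of a difference. Against the WT floor the KO mean is at least 1.08-fold higher. The call held in 5 of 16 alternatives. It was lost without filtering (edgeR adjusted p 0.11) and in 10 of 12 fits that left out a library, all but those without cl4_R3 and WT_TU_R2, with adjusted p up to 0.14 without WT_TU_R1. At day 2.5 WT levels were 0.925 to 3.57 CPM (median 1.76) and KO levels 1.67 to 12.1 CPM (median 6.86), which overlap and, with the filter passed through this KO group alone, are given without a test. At day 7.5 WT levels were 1.03, 1.40 and 1.29 CPM and KO levels 3.25, 4.03 and 4.65 CPM, with only 1 KO library in a library set that also held WT. These groups do not overlap, but they rest on 2 reads in each WT library and 5 to 7 in each KO library, the KO mean is at least 2.14-fold above the floor, and the difference did not pass (edgeR adjusted p = 1). B3GAT3, the linker enzyme of the family, kept group means between 10.5 and 25.1 CPM, B3GAT1 had 2.13 to 11.9 CPM, and neither passed the threshold in any comparison of KO with WT or of enzyme groups (edgeR).

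**Figure D2:**
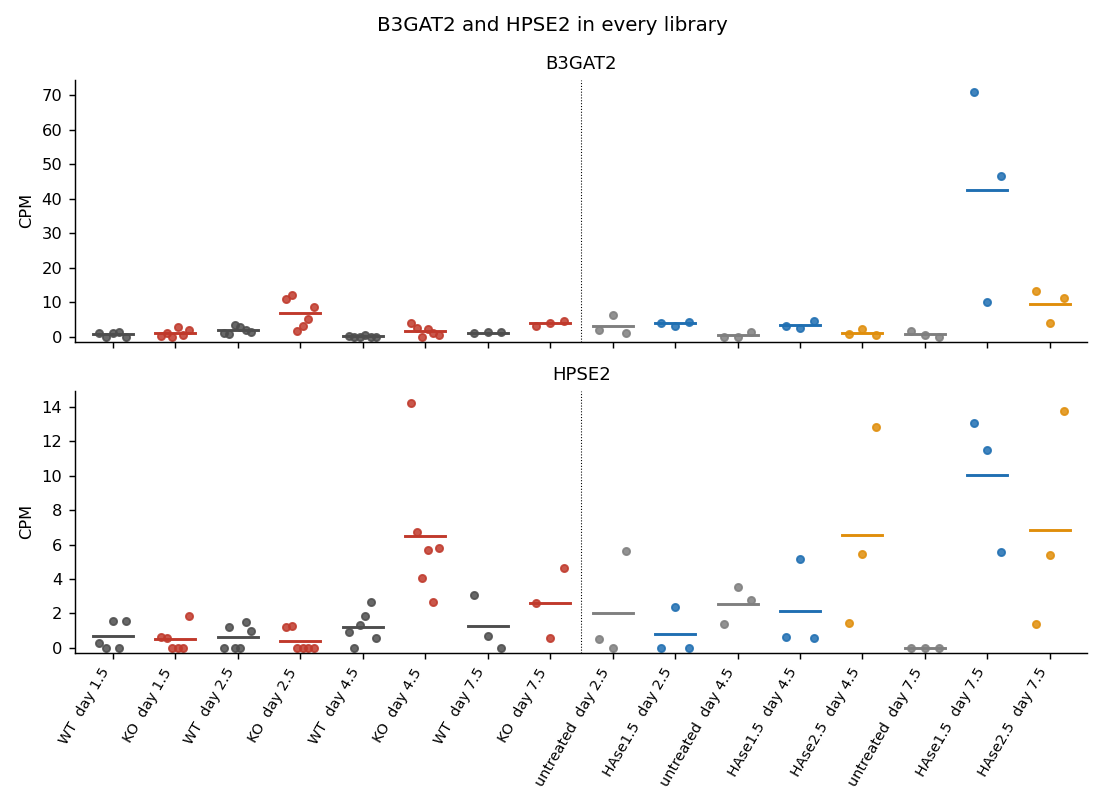
CPM of B3GAT2 and HPSE2 in each of 65 libraries (points) with the group mean (horizontal lines), by group and day, on linear axes; the dotted line separates the genotype arm from the enzyme arm. B3GAT2 reaches 10.1 to 70.9 CPM in HAse1.5 at day 7.5, and HPSE2 is at 0 in all 3 untreated libraries of that day and at 5.58 to 13.0 CPM in HAse1.5.

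Of the chondroitin genes, CHSY1 passed the threshold in no enzyme comparison, although in some enzyme groups it lay above all untreated libraries. The enzyme groups of a day share those untreated libraries, and the share of all genes set apart in this way was not counted. CHSY1, a chondroitin synthase, ranged over group means from 38.0 CPM (KO, day 2.5) to 84.1 CPM (HAse1.5, day 4.5). CHPF, its partner in polymerising the chain, ranged from 42.3 CPM (WT, day 2.5) to 86.6 CPM (HAse1.5, day 7.5). Neither passed the threshold in a comparison of KO with WT or of enzyme groups with each other or with untreated. CHSY1 at day 4.5 had 58.7, 67.5 and 67.5 CPM in untreated and 82.5, 69.1 and 101 CPM in HAse1.5 replicates, with no overlap. Its log2 fold change was 0.31 with a 95% interval of −0.08 to 0.69 (edgeR adjusted p 0.535). At day 7.5 the levels were 63.4, 53.0 and 56.4 CPM against 70.9, 72.6 and 86.4 CPM, again without overlap (0.30, −0.09 to 0.69, edgeR adjusted p 0.448). HAse2.5 libraries of day 4.5, at 71.9 to 78.9 CPM of CHSY1, also lay above all untreated ones (−0.20 to 0.57, edgeR adjusted p 0.983), and at day 7.5 all HAse1.5 libraries lay above HAse2.5, at 60.2 to 66.4 CPM (0.22, −0.17 to 0.60, edgeR adjusted p 0.988). CHPF had 60.7, 54.2 and 89.8 CPM against 62.8, 85.6 and 112 CPM at day 7.5, which overlap (0.23, −0.33 to 0.79, edgeR adjusted p 0.734).

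CSGALNACT1 adds the first N-acetylgalactosamine and so commits a linker to chondroitin. It was at 0 in 40 of 65 libraries, at the floor in 14 of 16 groups, and did not pass the filter for testing. The highest group mean was that of KO at day 2.5, where replicates cl4_R1, cl4_R2, cl4_R3, cl14_R1, cl46_R1 and cl51_R1 had 12.0, 3.82, 1.11, 3.13, 1.91 and 0.574 CPM. All 6 KO libraries held a read of it, 28 reads in sum, against 1 of 6 WT libraries with 3 reads. The KO mean is at least 2.44-fold above the WT floor, but it leans on cl4_R1, the smallest library of the series. At days 4.5 and 7.5 KO libraries held 6 and 1 reads in sum and WT libraries 5 and 1.

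EXT1 and EXT2 form the complex that polymerises heparan sulfate. EXT1 passed the threshold between days. In WT it fell from day 1.5 (58.7 to 72.9 CPM, median 65.9) to day 2.5 (36.4 to 55.8 CPM, median 45.7) by 0.72 ± 0.15 on the log2 scale (SE, edgeR adjusted p 0.000325), with no overlap. It then rose to 56.5 to 93.9 CPM (median 91.7) at day 4.5 by 0.83 ± 0.15 (edgeR adjusted p 2.11e-05), again with no overlap. Untreated cardioids of the enzyme arm showed the same step in other libraries, from 52.1, 59.9 and 57.8 CPM at day 2.5 to 92.8, 113 and 134 CPM at day 4.5 (0.87 ± 0.23, edgeR adjusted p 0.00727). EXT1 did not pass between KO and WT at any day. At day 2.5, where its unadjusted p was under 0.05, KO levels were 34.4 to 44.6 CPM against 36.4 to 55.8 CPM (log2 fold change −0.32, 95% interval −0.63 to −0.02, edgeR adjusted p 0.434). In the enzyme arm it did not pass between groups of a day. EXT1 was lower under HAse2.5 at day 4.5 in 3 of 3 lines (84.8 to 97.4 CPM against 92.8 to 134 CPM in untreated), with overlapping groups (−0.36, −0.82 to 0.11, edgeR adjusted p 0.884).

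EXT2 had lower counts and moved in the untreated cardioids. It fell from 23.9, 32.9 and 29.9 CPM at day 4.5 to 2.68, 8.93 and 8.16 CPM at day 7.5, by 1.95 ± 0.46 on the log2 scale (SE, edgeR adjusted p = 0.0126), with no overlap. The call was lost without untreated replicate 1 of day 7.5 (edgeR adjusted p 0.0779) or replicate 2 of day 4.5 (0.0528). HAse1.5 libraries had 15.5, 18.1 and 26.8 CPM of EXT2 at day 4.5 and 26.9, 10.8 and 14.6 CPM at day 7.5. At day 7.5 they lay above all untreated libraries, but the difference did not pass (log2 fold change 1.23, 95% interval 0.25 to 2.20, edgeR adjusted p 0.173). In WT libraries of the genotype arm EXT2 had 11.2 to 19.6 CPM at day 4.5 and 13.3, 9.77 and 9.70 CPM at day 7.5, a step that did not pass (−0.56, −1.22 to 0.10, edgeR adjusted p 0.47).

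NDST1 removes acetyl groups from heparan sulfate and replaces them with sulfate, the step on which later sulfation depends. Its group means lay between 108.5 and 173.7 CPM, with the smallest ratio of the highest to the lowest mean among the 10 genes. In WT it fell from day 1.5 (136 to 188 CPM, median 173) to day 2.5 (97.3 to 129 CPM, median 107) by 0.78 ± 0.17 on the log2 scale (SE, edgeR adjusted p 0.000544), without overlap. It was higher at day 4.5 (111 to 178 CPM, median 140), by 0.44 ± 0.17 (edgeR adjusted p 0.0355), a call kept in 9 of 17 alternatives and lost without filtering and without WT_R1, WT_R2, WT_TU_R2, TNT2 or cl43_WT_UT of day 2.5 or WT_R1 or cl43_WT_UT of day 4.5. In untreated cardioids of the enzyme arm NDST1 went the other way in that step, from 163 to 184 CPM (median 174) at day 2.5 to 124 to 141 CPM (median 127) at day 4.5, without overlap and without passing the threshold (log2 fold change −0.54, 95% interval −1.14 to 0.06, edgeR adjusted p 0.187). CHSY1 was higher at day 4.5 than at day 2.5 in WT by 0.49 ± 0.19 (edgeR adjusted p 0.0462), with 34.9 to 51.5 CPM (median 38.7) at day 2.5 and 38.7 to 74.5 CPM (median 53.6) at day 4.5. That call was kept in 8 of 17 alternatives and lost without filtering, in a fit of the 2 groups alone, and without WT_R2, WT_TU_R1, WT_TU_R2 or TNT2 of day 2.5 or WT_R2, WT_TU_R2 or cl43_WT_UT of day 4.5. NDST1 was called in no comparison of KO with WT or of enzyme groups. In HAse1.5 at day 7.5 its replicates had 125, 99.2 and 277 CPM, beside 140, 116 and 194 CPM in untreated ones.

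**Figure D3:**
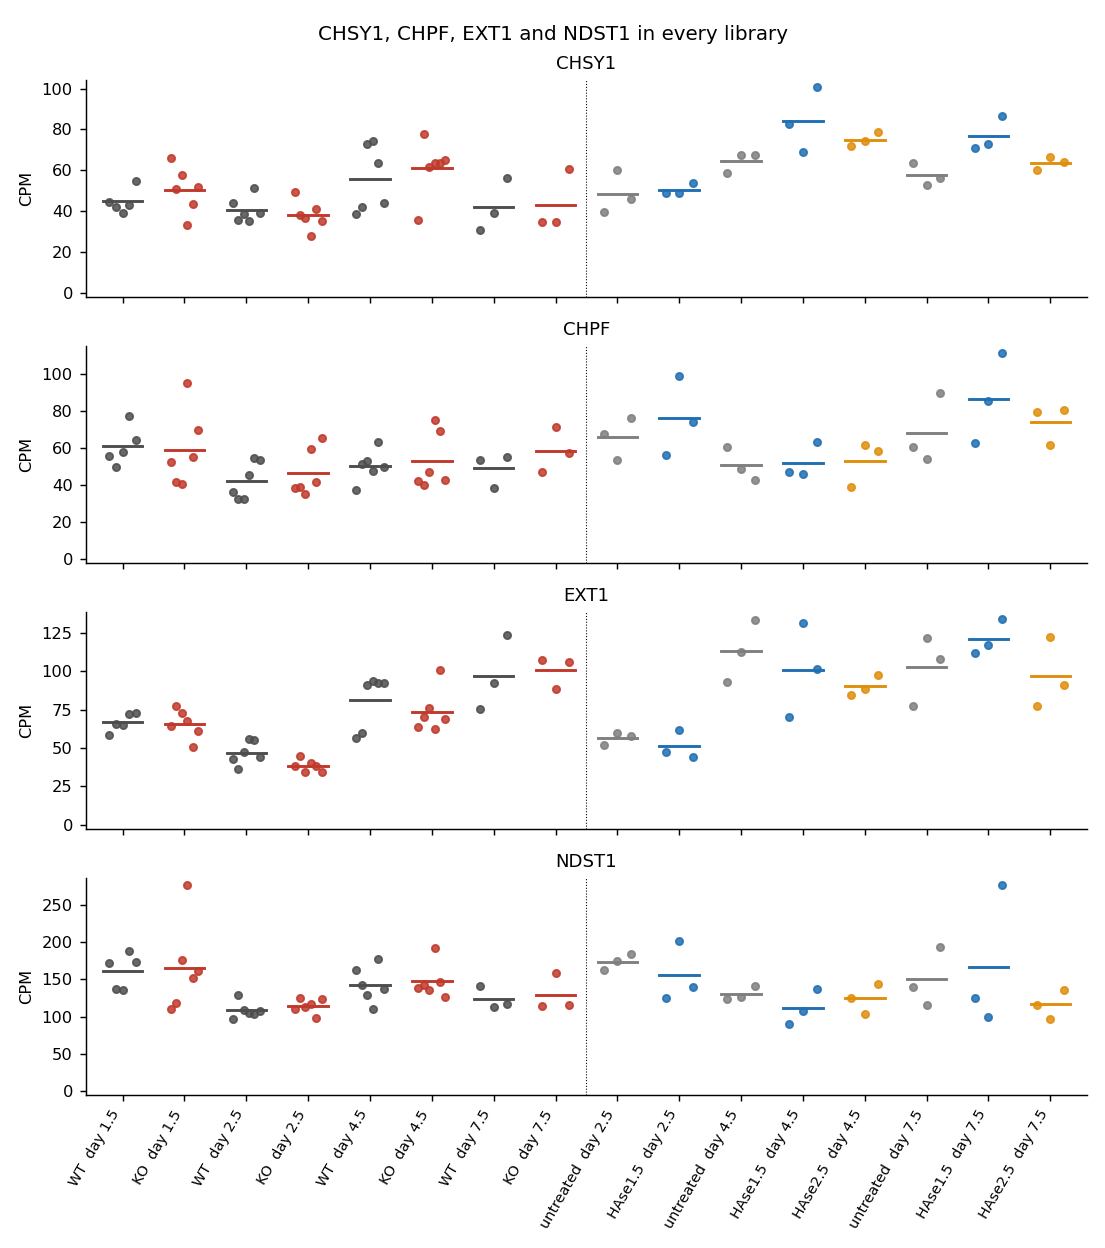
CPM of CHSY1, CHPF, EXT1 and NDST1 in each of 65 libraries (points) with the group mean (horizontal lines), by group and day, on linear axes; the dotted line separates the genotype arm from the enzyme arm. EXT1 is lowest at day 2.5 in both arms, and within each arm the groups of a day overlap for NDST1 and CHPF.

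HS6ST2, which adds sulfate at the 6-O position of glucosamine in heparan sulfate, came up in WT between day 1.5 (0 to 2.52 CPM, median 1.81) and day 2.5 (3.49 to 12.2 CPM, median 9.67). The groups do not overlap, and the log2 fold change was 2.32 ± 0.48 (SE, edgeR adjusted p 0.000253). WT then held 5.62 to 9.12 CPM (median 6.84) at day 4.5 and 6.16, 7.68 and 9.05 CPM at day 7.5. KO levels at day 2.5 overlapped those of WT (2.09 to 18.0 CPM, median 5.68) and at day 4.5 they were 0.611 to 2.69 CPM (median 2.23). No KO library of day 4.5 reached the lowest WT library. HS6ST2 was lower in KO by 1.85 ± 0.47 on the log2 scale (SE, edgeR adjusted p 0.0171). Groups without overlap are of necessity apart within each of the 3 library sets of this arm too, so that split adds no support. The first set and the second held only 1 KO library each, of clone cl4. The call was lost without cl46_R1 (edgeR adjusted p 0.0504) and without filtering on low counts (0.0538), and kept in the other 14 alternatives that tested it. In a fit of the 12 libraries alone HS6ST2 did not pass the filter on low counts. At day 7.5 KO levels were 4.56, 1.15 and 3.98 CPM, below all WT libraries, but the difference did not pass (log2 fold change −1.27, 95% interval −2.55 to 0.01, edgeR adjusted p 0.912). Only 1 of these KO libraries shares a library set with WT libraries of that day. Whether the KO effect on HS6ST2 changed over the days did not pass either (edgeR F-test, adjusted p 0.653).

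Under hyaluronidase HS6ST2 was low at day 7.5. Untreated replicates had 8.03, 12.1 and 6.68 CPM, HAse1.5 replicates 0.815, 0.719 and 2.79 CPM, and HAse2.5 replicates 2.08, 0 and 0.655 CPM. All enzyme libraries lay below all untreated ones, at 0 to 4 reads each. The HAse1.5 difference missed the threshold (log2 fold change −2.65, 95% interval −4.34 to −0.96, edgeR adjusted p 0.0763) and passed it with line as a replicate block in a paired fit (−2.77, edgeR adjusted p 0.0454) and in DESeq2 (adjusted p 0.0421). The HAse2.5 difference missed it as well (−3.25, 95% interval −5.04 to −1.46, edgeR adjusted p 0.0901, 0.0567 with the replicate block). HAse2.5 is at the floor, so the untreated mean of 8.94 CPM is at least 4.43-fold higher. At day 4.5 untreated replicates had 8.19, 3.55 and 9.04 CPM, HAse1.5 replicates 4.34, 11.2 and 11.1 CPM, and HAse2.5 replicates 1.44, 1.56 and 5.77 CPM. All 3 groups overlap, and no pair of them passed the threshold (edgeR adjusted p 0.947, 0.865 and 0.539). At day 2.5 HAse1.5 levels of 0, 1.598 and 3.12 CPM lay below untreated levels of 4.09, 4.47 and 6.17 CPM (−1.61, −3.31 to 0.10, edgeR adjusted p 0.598).

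HPSE2 encodes heparanase 2, a relative of heparanase that binds heparan sulfate but does not cut it. At day 7.5, where it was selected, untreated replicates had no read, HAse1.5 replicates had 13.0, 11.5 and 5.58 CPM, and HAse2.5 replicates 1.38, 5.37 and 13.8 CPM. No enzyme library was at 0. Counts of 16, 16 and 8 reads in HAse1.5 put its mean at least 4.42-fold above the untreated floor, and the HAse2.5 mean was at least 3.01-fold above it. In the genotype arm at that day 2 of 3 WT libraries held a read of HPSE2, with levels of 3.08, 0.698 and 0 CPM, and KO libraries had 2.60, 0.576 and 4.65 CPM. At day 4.5 the HPSE2 levels of the enzyme arm overlapped: untreated replicates had 1.36, 3.55 and 2.78 CPM, HAse1.5 replicates 0.621, 5.19 and 0.582 CPM and HAse2.5 replicates 1.44, 5.46 and 12.8 CPM. Replicate 3, the line labelled TNNT2, was the highest of HAse2.5 at both days. HPSE, the active heparanase, was at 0 in all libraries of day 7.5 and in all groups of day 4.5 but untreated. Its highest value in any library was 3.49 CPM.

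In KO cardioids HPSE2 was at 2.69 to 14.2 CPM at day 4.5 (median 5.74), with 5 to 28 reads a library, against 0 to 2.64 CPM in WT (median 1.12). The groups do not overlap. HPSE2 reached the level of the filter on low counts (5.74 CPM in at least 3 libraries) in 3 libraries of the genotype arm, all of this KO group, so it was tested only because it is high there, and its values are given without a test. Within the 3 library sets the means of KO and WT were 14.2 against 0.469, 6.72 against 1.59 and 4.55 against 1.61 CPM. The first set and the second held only 1 KO library each, of clone cl4. This splits the group that admitted the gene and adds no support. The highest KO library, cl4_R1, held 28 of the 68 reads of its group. HPSE2 had at most 1.87 CPM in every library of days 1.5 and 2.5 in this arm. B3GAT2 and HPSE2 therefore had their highest KO means at different days, day 2.5 for B3GAT2 (6.91 CPM) and day 4.5 for HPSE2 (6.52 CPM).

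**Figure D4:**
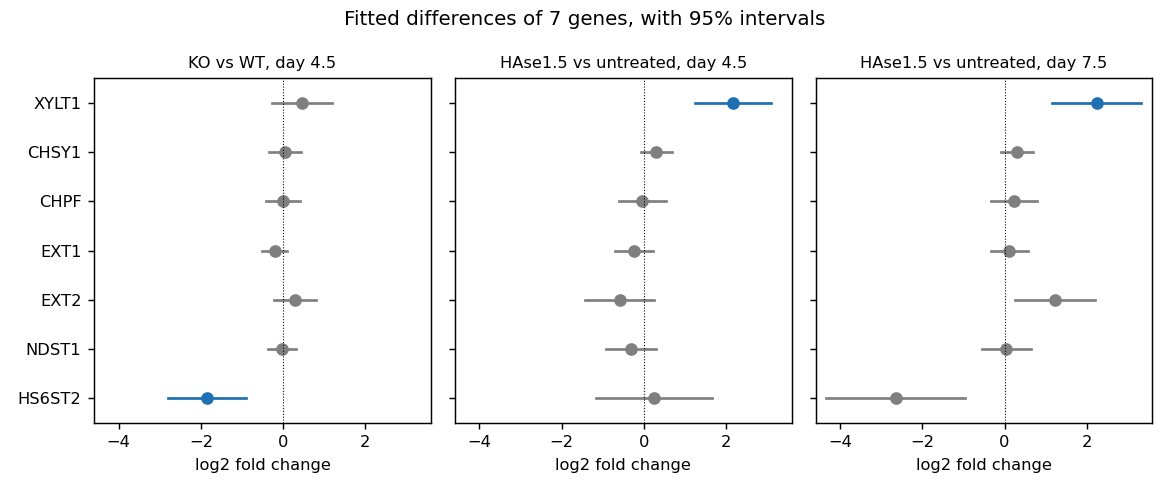
Fitted log2 fold changes (points) with 95% intervals (lines) of 7 genes in 3 comparisons; blue marks an edgeR adjusted p under 0.05. B3GAT2 and HPSE2, selected on the day 7.5 values, and CSGALNACT1, which was not tested, are left out. XYLT1 is higher under HAse1.5 at both days, and HS6ST2 lower in KO at day 4.5.

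Of the 10 genes 9 passed the filter on low counts and were tested, all but CSGALNACT1, with B3GAT2 and HPSE2 admitted in the genotype arm only by 1 KO group each. Counts of calls at an edgeR adjusted p of 0.05 stand beside the share over all genes tested. In the steps between days of WT, 4 of 9 passed from day 1.5 to 2.5 (1 higher, 3 lower), where 30.1% of all 13797 genes tested did, 4 of 9 from day 2.5 to 4.5 (3 higher and 1 lower, against 34.5%), and 0 of 9 from day 4.5 to 7.5 (against 2.7%, with 1 at an unadjusted p under 0.05 and 0 in DESeq2). The lower gene of the second step is B3GAT2, from 0.925 to 3.57 CPM at day 2.5 to the floor at day 4.5, where the day 2.5 mean is at least 1.25-fold higher. CHPF is the third gene that fell in the first step, from a median of 58.0 to 40.7 CPM (−0.73, edgeR adjusted p 0.00824). In untreated cardioids 1 of 9 passed from day 2.5 to 4.5 (EXT1, against 23% of 12748 genes) and 1 of 7 from day 4.5 to 7.5 (EXT2, against 6.39%). B3GAT2 and HPSE2 are not counted in comparisons that hold the day 7.5 libraries of the enzyme arm. Elsewhere in that arm they are counted, although only enzyme-treated libraries brought them past the filter.

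Between KO and WT, 0 of 9 passed at day 1.5, against 0% of all genes (591 at an unadjusted p under 0.05, and 0 in DESeq2), 0 of 9 at day 2.5 (against 0.993%, with 2 at an unadjusted p under 0.05), 2 of 9 at day 4.5 (B3GAT2 and HS6ST2, against 3.74%) and 0 of 9 at day 7.5 (against 0.348%, 0 at an unadjusted p under 0.05). The test of a KO effect that changed over the days was passed by 0 of 9, against 0.674% of all genes, and 0 had an unadjusted p under 0.05. DESeq2 also called 0 in these comparisons other than day 4.5, where it called 2. The 9 include B3GAT2 and HPSE2 only through KO groups in which they are high. The B3GAT2 call at day 4.5 is therefore no evidence of a difference, which leaves that of HS6ST2.

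Counts out of 9 in the enzyme arm include B3GAT2 and HPSE2, although only enzyme-treated libraries brought them past the filter. Some of those libraries are the ones they were selected on, and neither gene was called in these counts. Between HAse1.5 and untreated, 0 of 9 passed at day 2.5 (against 1.15%, 0 at an unadjusted p under 0.05), 1 of 9 at day 4.5 (XYLT1, against 3.48%) and 1 of 7 at day 7.5 (XYLT1, against 3.33%). The replicate block raised the last count to 2 and so did DESeq2, both by HS6ST2. Between HAse2.5 and untreated, 0 of 9 passed at day 4.5 (against 0.22%, 1 at an unadjusted p under 0.05) and 0 of 7 at day 7.5 (against 0.659%, 1 at an unadjusted p under 0.05). Between HAse1.5 and HAse2.5 the counts were 0 of 9 (against 0.361%) and 0 of 7 (against 0.00784%), with 1 at an unadjusted p under 0.05 at each day. The HAse1.5 effect changed over the days for 0 of 7 genes, against 1.01% of all genes, with 3 at an unadjusted p under 0.05. DESeq2 called 0 in each of these comparisons with a count of 0.

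Other genes of the same pathway, 66 in all, were read from a list of linker, precursor, chondroitin, heparan sulfate, turnover, HNK-1 and lysosomal genes; 56 were tested in the genotype arm and 49 in the enzyme arm. Under HAse1.5 at day 4.5, 2 of 49 were higher and 1 lower, where 3.48% of all genes were called: UST, which adds sulfate to uronic acid in chondroitin (log2 fold change 2.18), IDS, a lysosomal sulfatase (1.14), and UXS1, which makes the UDP-xylose used by xylosyltransferases (−1.04, edgeR adjusted p 0.0443, 0.00928 and 0.0172). UST levels were 0.70 to 4.09 CPM in untreated and 7.57 to 17.3 CPM in HAse1.5 libraries. At day 7.5, where 3.33% of all genes were called, 2 of 49 were higher, the chondroitin sulfotransferase CHST11 (1.36) and the polymerising factor CHPF2 (1.09), and 2 lower, UGP2, which makes UDP-glucose (−1.13), and the dermatan epimerase DSE (−1.29, edgeR adjusted p 0.0215, 0.0493, 0.00648 and 0.0436). CHST11 had 10.4 to 21.1 CPM in untreated and 28.6 to 53.8 CPM in HAse1.5 libraries of that day. None passed at day 2.5, under HAse2.5 or between the enzyme groups.

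In KO 1 of the 56 passed at day 2.5, PXYLP1, a phosphatase of the linker xylose (−1.64, edgeR adjusted p 0.00709), and 3 at day 4.5, where 0.993% and 3.74% of all genes were called. HS3ST5, a 3-O-sulfotransferase of heparan sulfate, was higher (1.64, 1.88 to 5.00 CPM in WT and 4.63 to 22.6 CPM in KO). HS6ST1, the relative of HS6ST2 in the same reaction, was lower (−1.42, 7.25 to 34.9 CPM in WT and 2.14 to 9.40 CPM in KO), and so was UGP2 (−0.57, edgeR adjusted p 0.0442, 0.0466 and 0.0413). None passed at day 1.5 or 7.5. HS6ST1 and HS6ST2 were thus both called lower in KO at day 4.5, HS6ST1 with overlapping groups. The calls of these other pathway genes were not tried under the alternatives used for the 10 genes. The extracellular sulfatases SULF1 and SULF2, which remove 6-O-sulfate, were called in no comparison of KO with WT or of enzyme groups.

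Between days the counts are read against the share of all genes called in the same step. From day 1.5 to 2.5 in WT 14 of 56 were higher and 10 lower (30.1% of all genes were called), the farthest being EXTL1 (4.47) and IDUA (4.02) upward and HS3ST2 (−7.40) and HS3ST1 (−3.38) downward on the log2 scale. From day 2.5 to 4.5, 6 were higher (IDUA 2.65, UGP2 2.11) and 10 lower (HS3ST3A1 −3.89, DSEL −2.67), against 34.5% of all genes. In untreated cardioids that step had 6 higher (SLC35D1 2.00, UGP2 1.75) and 6 lower (HS3ST3A1 −3.52, UST −2.31) of 49, against 23% of all genes, and the step from day 4.5 to 7.5 had 3 higher (PAPSS2 and DSE the farthest, DSE by 1.16) and 1 lower (UGDH −1.15), against 6.39%. All these passed an edgeR adjusted p of 0.05.

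**Figure D5:**
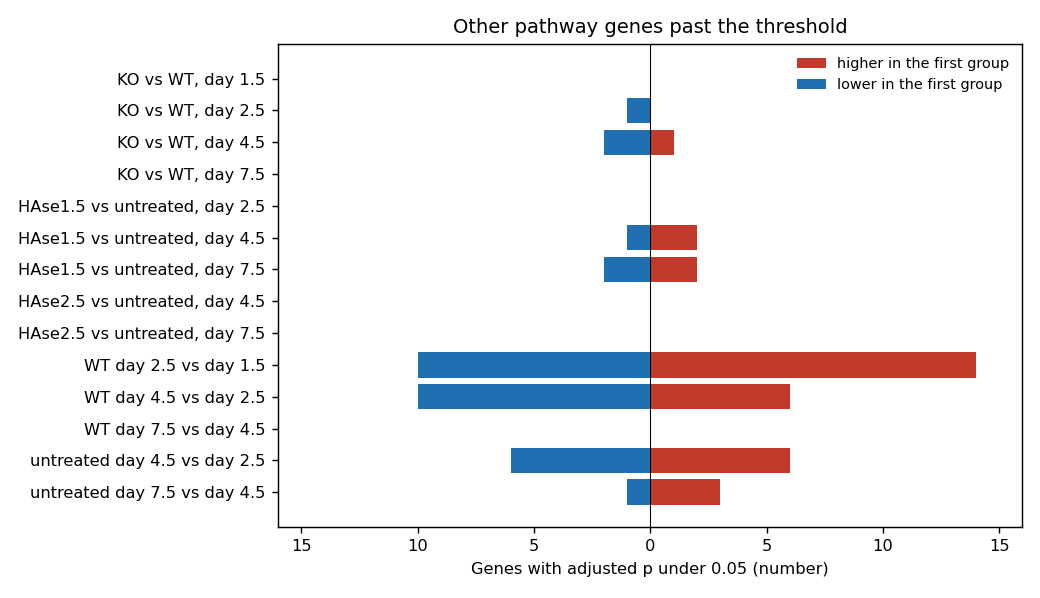
Number of the 66 other pathway genes past an edgeR adjusted p of 0.05 in each of the comparisons shown, higher in the first-named group to the right and lower to the left, on a linear axis. The steps of WT between days 1.5 and 2.5 (14 higher, 10 lower) and between days 2.5 and 4.5 (6 and 10) hold the most, and 30.1% and 34.5% of all genes were called in them; KO and enzyme comparisons hold 4 or fewer, where at most 3.74% of all genes were called.

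Over the 16 group means of log2 CPM, B3GAT2 was most like PEG10 (Pearson r 0.835), SRSF11 (0.819) and TAC1 (0.795), and HPSE2 most like ZNF385D (0.896), ITGA2 (0.884) and DIPK1A (0.854), among 14046 genes. B3GAT2 and HPSE2 had r 0.488 with each other. Both genes were selected for a rise in HAse1.5 at day 7.5, and that group is among the 16. A positive r between them is therefore partly built in by the selection and is no evidence that they vary together. Genes high in that group are likewise favoured as the most similar ones. The highest r among the 10 genes was that of CHPF with NDST1 (0.65) and the lowest that of CHPF with HS6ST2 (−0.64). These groups share lines and days and differ in depth, so the values describe these libraries.

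Summed markers of some cell types differed between enzyme and untreated libraries, which was not tested. At day 7.5 the fibroblast or epicardial, endothelial and mesoderm sums of HAse1.5 overlapped those of untreated libraries. The summed level of the 7 cardiomyocyte markers was 22978 to 44521 CPM in untreated and 5154 to 18907 CPM in HAse1.5 libraries of day 4.5, and 58827 to 68041 against 29532 to 33250 CPM at day 7.5, with 36895 to 59908 CPM in HAse2.5. None of the 7 was at 0. The 7 fibroblast or epicardial markers summed to 345 to 1124 CPM in untreated and 606 to 1101 CPM in HAse1.5 libraries of day 7.5, with TBX18 at 0 in HAse1.5. Of 7 neural or neural crest markers, 6 were at 0 in HAse1.5 at day 7.5, all but NES, whose level made up the sum of 529 to 634 CPM against 772 to 1243 CPM in untreated libraries. The 5 endothelial markers summed to 35.7 to 58.6 CPM in untreated and 27.7 to 39.0 CPM in HAse1.5. The 5 endoderm markers summed to 75.9 to 205 and 43.1 to 73.9 CPM, with AFP at 0 in HAse1.5, and the 5 mesoderm markers to 11.6 to 27.4 and 12.2 to 32.6 CPM, with TBXT at 0 in both and TBX6 in HAse1.5. At day 4.5 cardiomyocyte markers summed to 26834 to 56554 CPM in WT and 15591 to 40709 CPM in KO. The part of these shifts in the values of XYLT1, B3GAT2, HPSE2 and HS6ST2 was not tested.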

How the data were processed

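Gene counts of 65 libraries (QuantSeq FWD 3′ mRNA kit, single-end reads, per the labels' protocols) were used as deposited. The authors made the counts with featureCounts of Subread 1.6.2 on hg38, per the submitters' processing notes. The aligner, the annotation release and the strand setting are not given in the sources used here. Of the 58735 gene IDs, 58207 matched a symbol, and 4 count columns of no listed sample were not used. CPM is the count divided by the library total, on the usual CPM scale. A depth of 831062 to 3574843 counts limits precision to counting error at low levels.

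The edgeR 4.0.16 quasi-likelihood test (R 4.3.3, TMM, filterByExpr with a minimum count of 10, robust fit) was run with 1 mean per group, on all libraries of an arm. The filter came to 5.74 CPM in the genotype arm and 6.94 CPM in the enzyme arm, in at least 3 libraries. P-values are two-sided and Benjamini-Hochberg adjusted over all genes tested (13797 in the genotype arm, 12748 in the enzyme arm), with a threshold of 0.05. SE is the log2 fold change over the square root of F. No label says that all libraries of a group are separate cultures, so p-values measure the spread between these libraries, which may be technical. All 115 pairs of replicates differed by more than counting noise (chi-square over degrees of freedom 2.07 to 71.8). The model was also run on simulated independent libraries with a fixed dispersion, in which only genes averaging at least 10 counts were changed. That run does not bear on shared lines or clones, or on genes with few reads.

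In the enzyme arm equal replicate numbers are the same line and so pair the libraries: 15 of 21 pairs of the same line had correlated deviations (r over 0.1), against 5 of 42 of different lines. The library sets of the genotype arm follow the library numbers in the labels and hold 3 runs of lines: those of WT, WT_TU and cl4 marked R1, those marked R2, and all others. Alternatives were DESeq2 1.42.0, no filter, only the libraries compared, RLE size factors, a replicate block and leaving out each library. Pathway genes named beyond the 10 were, among those past the threshold, up to 3 with the largest and 3 with the smallest log2 fold change (2 and 2 between days), the relatives HPSE, SULF1, SULF2, B3GAT1 and B3GAT3, and the 3 genes most like B3GAT2 and HPSE2 over the groups. The members and lists were chosen with earlier results of these data known.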

Additional observations from a re-analysis of the deposited data

Results flagged for a closer look

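A library that stood far from the others of its group was looked for in 52 combinations of gene and group with 5 or 6 libraries, of which chance sets apart about 1 in 20, and 8 were found. HPSE2 had 1.87 CPM in cl51_R1 of KO at day 1.5 (next 0.616) and 14.2 CPM in cl4_R1 of KO at day 4.5 (next 6.72). CSGALNACT1 had 12.0 CPM in cl4_R1 of KO at day 2.5 (next 3.82), which was 10 reads. XYLT1 had 14.0 CPM in cl46_R1 of KO at day 1.5 (next 9.62). EXT1 had 100.7 CPM (next 75.9) and EXT2 36.6 CPM in cl46_R1 of KO at day 4.5. NDST1 had 128.9 CPM in WT_TU_R1 of WT at day 2.5 (next 108.4) and 192.9 CPM in cl14_R1 of KO at day 4.5 (next 147.0). All 8 were the highest of their group, and 7 were KO libraries. The rate of 1 in 20 is for normally distributed values, which low counts are not. KO groups mix clones, and the combinations screened were not counted by genotype. The 7 are therefore not read as a trait of KO.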

How the results depend on the processing

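Counts of the 9 tested genes past the threshold (7 in comparisons with day 7.5 of the enzyme arm) changed under these alternatives. HAse1.5 at day 7.5 had 1, and 2 with DESeq2, 2 with the replicate block and 0 with only the libraries compared. HAse2.5 at day 7.5 had 0, and 1 with no filter. KO at day 4.5 had 2, and 0 with no filter or with only the libraries compared. Untreated day 4.5 against 2.5 had 1, and 2 with only the libraries compared. WT day 4.5 against 2.5 had 4, and 2 with no filter or with only the libraries compared. Leaving out a library gave 0 to 1 for HAse1.5 at day 4.5, 0 to 1 at day 7.5, 0 to 2 for KO at day 4.5, 0 to 2 for untreated day 7.5 against 4.5, 2 to 4 for WT day 4.5 against 2.5, 4 to 5 for WT day 2.5 against 1.5, and 0 to 1 for the HAse1.5 effect over days. The causes were not tested. No direction reversed in any alternative. Other than leaving out a library, 79 counts stayed within 1.5 times and 9 did not.

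The replicate block (line) gave 1 at HAse1.5 day 4.5, and HS6ST2 at day 7.5 was the only call it changed among the enzyme comparisons. In the genotype arm the library set is no stated pairing: 26 of 37 pairs of the same set correlated over 0.1, against 7 of 74 of different sets. As a replicate block it gave 3 at KO day 4.5, adding HPSE2, which is tested only through that KO group, and 5 at WT day 2.5 against 1.5, adding EXT2 (0.0465). Over all genes, counts of calls moved by over 1.5 times in most comparisons; each is given with its lowest and highest value over these alternatives other than leaving out a library. KO had 137 (96 to 292) at day 2.5, 516 (212 to 829) at day 4.5 and 48 (43 to 193) at day 7.5, and an effect that changed over days in 93 (87 to 416). HAse1.5 had 146 (90 to 290) and 425 (173 to 713) at days 2.5 and 7.5, and an effect that changed over days in 129 (128 to 549). HAse2.5 had 28 (28 to 201) and 84 (7 to 354) at days 4.5 and 7.5. HAse1.5 against HAse2.5 had 46 (26 to 296) and 1 (1 to 80). WT had 4153 (2736 to 5403) between days 1.5 and 2.5 and 372 (192 to 852) between days 4.5 and 7.5, where untreated cardioids had 814 (401 to 1279). Depth limits B3GAT2, HPSE2, CSGALNACT1 and HS6ST2, where a group often held under 10 reads.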
